A study of Homo sapiens with 8 samples.

Results

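The 9 genes described here belong to the oxidative stress response that the transcription factor NRF2 governs. They are NFE2L2, which encodes NRF2 itself, and NQO1, HMOX1, TXN, TXNRD1, SRXN1, SLC7A11, GCLC and GCLM. All probes whose platform annotation carries 1 of these symbols were taken, which gave 14 probes for 9 genes, out of 47323 probes and 20046 genes with a single symbol in all. Of the 14 probes 12 passed the filter on dim probes (detection p under 0.05 on at least 2 arrays). All 9 genes kept at least 1 probe. The filter therefore removed no gene, but SLC7A11 passed it on 2 of 8 arrays only, whereas the other 8 genes were detected on all 8.

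Under basal conditions NRF2 is bound by KEAP1 and handed to the proteasome. Oxidants and electrophiles modify KEAP1, after which NRF2 accumulates, pairs with small MAF proteins and binds antioxidant response elements in DNA. Because this control acts mainly on the protein, the NFE2L2 transcript need not follow the activity of NRF2, and its target transcripts are the usual readout. In liver the pathway supplies glutathione, reduced thioredoxin and NADPH for the handling of drugs and reactive oxygen species.

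Human liver cells were cultured for 5 days in 3 formats, and RNA of each culture was hybridised to 1 Illumina HumanHT-12 v4 bead array, read in 1 colour. Perfused 3D cultures (labelled 3DBR, 2 arrays) were seeded with 1000000 cells into MatriGrid, a microporous polycarbonate scaffold, inside a bioreactor through which a peristaltic pump drove medium. Static 3D cultures (3D, 3 arrays) used the same scaffold and cell number in the wells of a plate, without flow. Monolayer cultures (2D, 3 arrays) were the control and started from 250000 cells, so that format and seeded number change together in comparisons with 2D. Chip 1 held both perfused arrays and static 3D replicate 1, and chip 2 held the rest. Perfused 3D and 2D thus shared no chip, so format and chip change together in that comparison as well. Values under the chip block, given below, come from a fit with chip as a further term. No drug or genetic change was applied to any group. The design text speaks of 3 perfused cultures, but 2 perfused arrays were analysed here.

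The labels disagree on the cells. A characteristic names the hepatocarcinoma line HepG2, while the design text speaks of hepatocytes from several donors, and no label ties an array to a donor. Replicate numbers given here only name arrays, and p-values measure only the spread between these arrays, which may be technical. Hepatocyte markers were detected on every array (7 of 7 on each). Of 12 macrophage markers 12 were detected on both perfused arrays, 3 to 12 on the static arrays and 7 to 12 on the 2D arrays. Of the hepatoma line markers, GPC3, DLK1 and LIN28B were not detected on any array, while PEG10 was detected on 5 of 8 and AFP on all 8. Static 3D replicate 1 and 2D replicate 1 stood apart. They had no detected C1QB or COL1A1, which were detected on the other 6 arrays, and had TOP2A, a gene of dividing cells, at 10.64 and 10.69 on the log2 scale, against at most 7.91 elsewhere. Intensities are the deposited mean bead intensities in scanner units (array medians 279 to 386). Levels are log2 values after background correction and quantile normalisation, and fold changes are differences of mean levels.

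None of the 9 genes passed the test in any comparison. limma called 0 of 9 genes at an adjusted p under 0.05 in each of them. Over all 11031 genes tested, it called 0.00907% in perfused against static 3D, 0.00907% in perfused 3D against 2D and 0% in static 3D against 2D. At an unadjusted p under 0.05 limma found NQO1, higher in perfused than in static 3D, and TXN, lower in static 3D than in 2D. It found 0 of the 9 in perfused 3D against 2D. Shares of all genes at that threshold were 1.88% in perfused against static 3D (1.12% higher), 4.22% in perfused 3D against 2D and 4.7% in static 3D against 2D (2.06% lower). In every one of the 19 alternative fits the number of the 9 genes called was also 0.

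**Figure D1:**
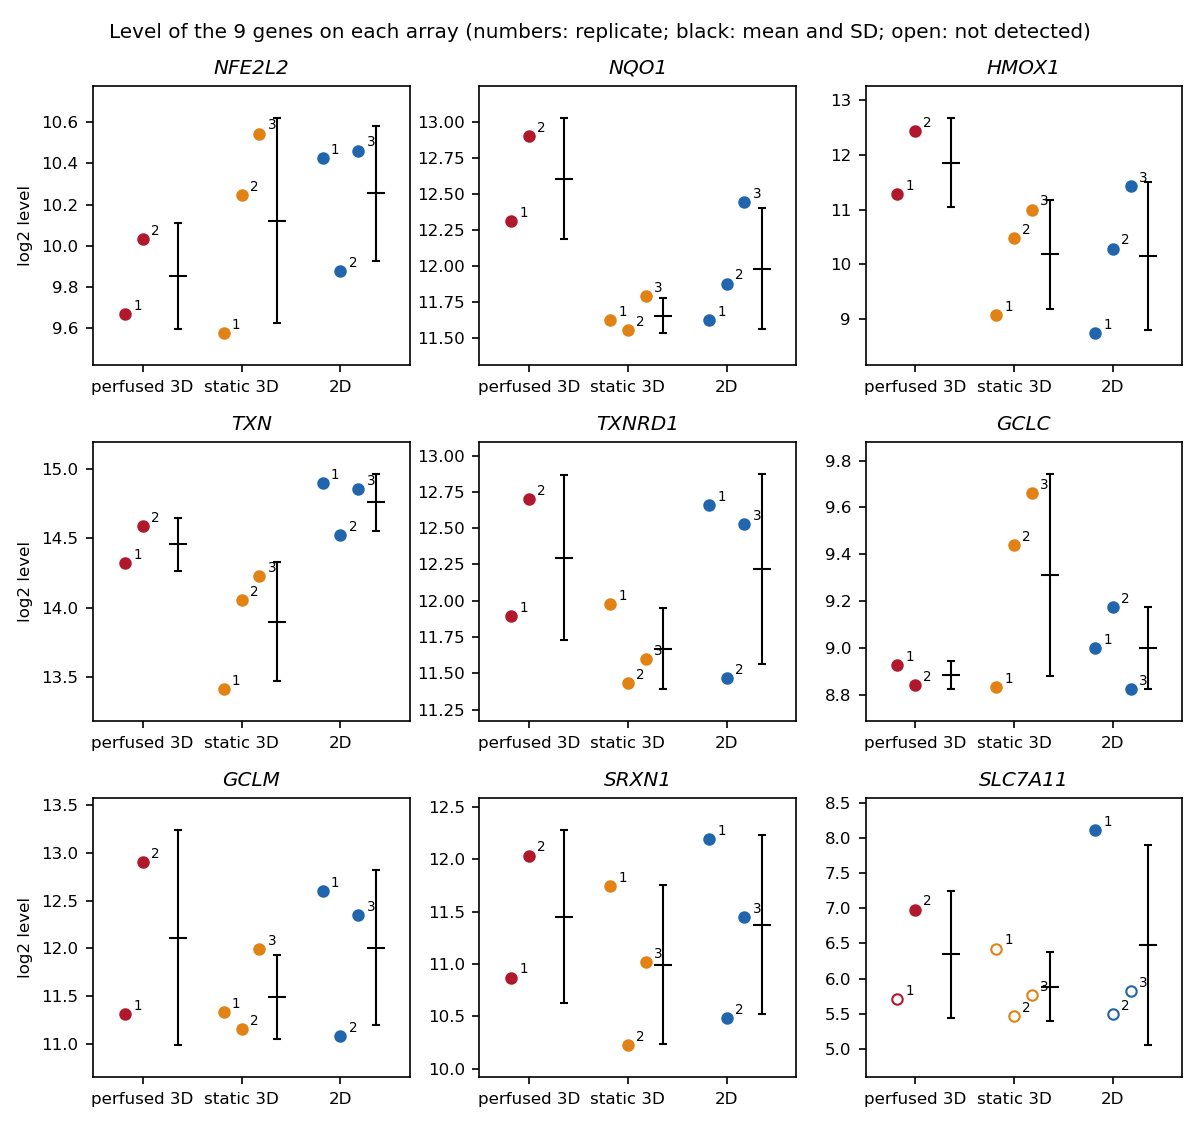
Log2 level (vertical axis) of the 9 genes on each array in perfused 3D, static 3D and 2D, with points numbered by replicate, open where the probe was not detected, and the mean and SD in black. NQO1 lies between 12.31 and 12.90 in perfused 3D and between 11.55 and 11.79 in static 3D, and TXN has all 3 static arrays below all 3 of 2D.

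NFE2L2, the transcript of NRF2, did not separate the formats. Its intensity (probe ILMN_1790909) was 919 and 1399.5 units on the perfused arrays, 1103, 1329 and 1816 units on the static arrays and 1849, 1142 and 1697 units in 2D. The mean level was 9.85 ± 0.26 in perfused 3D (SD, n = 2), 10.12 ± 0.50 in static 3D and 10.25 ± 0.33 in 2D (SD, n = 3 each). The groups overlapped in all 3 comparisons. The log2 fold change was -0.27 (SE 0.35) for perfused against static 3D, -0.40 (SE 0.35) for perfused 3D against 2D and -0.13 (SE 0.31) for static 3D against 2D. Under the chip block all 3 values changed sign, to 0.28, 0.42 and 0.14, and without the pair of arrays that stood apart they were -0.55, -0.32 and 0.23. The sign of the NFE2L2 difference therefore depended on the setting.

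NQO1 encodes a quinone reductase that reduces quinones with NADPH or NADH and is among the most used readouts of NRF2. It was at its highest under perfusion. The intensity (probe ILMN_1720282) was 4461 and 8553 units on the perfused arrays, 3635, 2863 and 3832 units on the static arrays and 3902, 3808 and 5845 units in 2D. Both perfused arrays lay above all static arrays, while 2D replicate 3 lay between the perfused arrays. The mean level was 12.60 ± 0.42 in perfused 3D (SD, n = 2), 11.65 ± 0.12 in static 3D and 11.98 ± 0.42 in 2D (SD, n = 3 each).

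For perfused against static 3D the log2 fold change of NQO1 was 0.95 (SE 0.30), a 1.93-fold difference with a 95% interval of 0.27 to 1.63 on the log2 scale. By limma the unadjusted p was 0.0118 and the adjusted p 1.00, at rank 43 of the 11031 genes. It was 0.98 (SE 0.42) within chip 1, where static 3D replicate 1 is the only static array, 0.935 without the pair of arrays that stood apart, and 0.65 to 1.25 over the fits that lacked 1 array. Against 2D the perfused value was 0.62 (SE 0.30, limma adjusted p 0.964), and 0.33 without perfused replicate 2. Static 3D against 2D gave -0.33 (SE 0.27), and -0.10 without 2D replicate 3. A further NQO1 probe (ILMN_2354953) was detected on 1 of 8 arrays, with intensities of 299 to 407 units, and was not tested.

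HMOX1, heme oxygenase 1, breaks down haem to biliverdin, iron and carbon monoxide. It is induced by NRF2 once the repressor BACH1 leaves its enhancers, and among liver cells it is also known for high expression in macrophages. It spread most of the 9 genes. The intensity (probe ILMN_1800512) was 2300.5 and 6384 units on the perfused arrays, 861, 1498 and 2395 units on the static arrays and 719, 1428 and 3061 units in 2D. The highest array was perfused replicate 2 and the lowest were 2D replicate 1 and static 3D replicate 1. The range over the 8 arrays was 3.69 on the log2 scale, or 12.9-fold, against a median range of 1.08 over all genes. Of all genes 2.06% had a range at least as wide.

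The mean HMOX1 level was 11.86 ± 0.81 in perfused 3D (SD, n = 2), 10.19 ± 0.99 in static 3D and 10.16 ± 1.35 in 2D (SD, n = 3 each). Perfused against static 3D differed by 1.67 (SE 0.81, 95% interval -0.18 to 3.53, limma adjusted p 1.00) with no overlap. The value was 1.10 without perfused replicate 2 and 1.12 without static 3D replicate 1. Only the normalised levels were free of overlap. The intensities overlapped, at 2300.5 units on perfused replicate 1 and 2395 units on static 3D replicate 3. Perfused 3D against 2D differed by 1.70 (SE 0.81, 95% interval -0.15 to 3.56, limma adjusted p 0.964), and 2D replicate 3 lay above perfused replicate 1. That value was 1.00 without 2D replicate 1 and 1.13 without perfused replicate 2. In the fit with chip as a block the values were 2.78 and 3.37, and both rest on static 3D replicate 1 as the only static array of its chip. Static 3D against 2D gave 0.03 (SE 0.73), and -0.16 with median scaling.

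Macrophage markers also had positive perfused values, in 12 of 12 over static 3D (median 1.37) and in 12 of 12 over 2D (median 1.06), none of them called by limma. Without the pair of arrays that stood apart 9 and 6 of 12 were positive. Their mean level was 10.74 and 9.76 on the perfused arrays, 7.12, 10.16 and 9.70 on the static arrays and 7.17, 10.78 and 9.46 in 2D. The summed level of the 12 markers ran from 17742 to 38323 units in perfused 3D, 6569 to 25246 units in static 3D and 4173 to 35710 units in 2D. C1QB, a complement gene of macrophages, was not detected on 2D replicate 1 and static 3D replicate 1, the same pair on which HMOX1 was lowest. CD163, the macrophage receptor for haemoglobin, was at 6.53 on static 3D replicate 1, where it was not detected, and at 7.34 on 2D replicate 1, against 9.69 to 10.78 on the other 6 arrays. CD68 did not have this pattern, at 12.10 and 11.45 on this pair, against 11.27 to 13.02 on the other 6 arrays. CD14 and LYZ were detected on both arrays of the pair, at levels below those of the other 6. In bulk RNA, fewer cells of a type and less RNA per cell cannot be told apart. Without that pair the perfused values of HMOX1 were 1.12 over static 3D and 1.00 over 2D. On the remaining arrays perfused replicate 2 had the highest HMOX1 level (12.43) with a marker mean of 9.76, while 2D replicate 2 had the highest marker mean with an HMOX1 level of 10.29. The part of macrophage RNA in the HMOX1 difference was not tested.

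**Figure D2:**
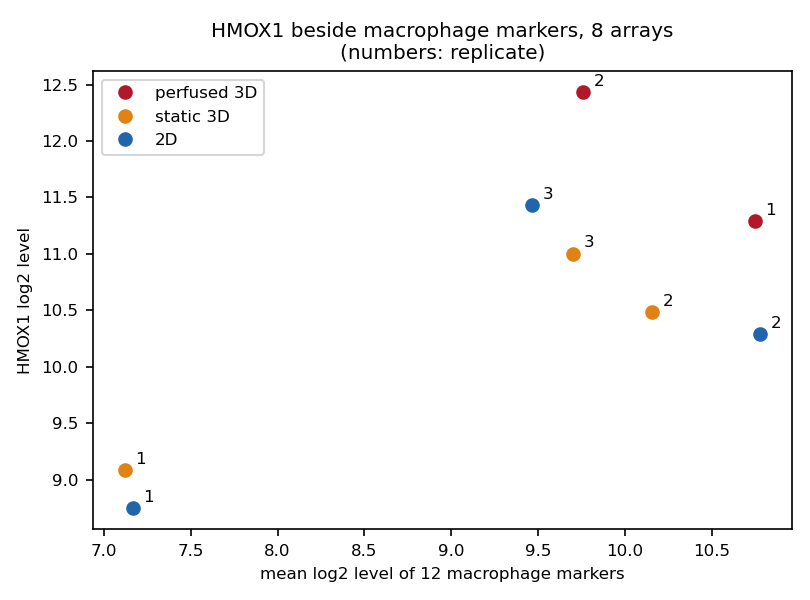
HMOX1 log2 level (vertical axis) against the mean log2 level of 12 macrophage markers (horizontal axis) for the 8 arrays, coloured by group and numbered by replicate. 2D replicate 1 and static 3D replicate 1 lie apart at the lower left, with marker means of 7.17 and 7.12, and the other 6 arrays lie at marker means of 9.46 to 10.78.

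TXN, thioredoxin, is the small protein that reduces disulfides in other proteins. Its intensity (probe ILMN_2038776) was 17570 and 25634 units on the perfused arrays, 11529, 15855 and 20086 units on the static arrays and 34173, 23620 and 29730 units in 2D. After normalisation the 3 static arrays lay at 13.42, 14.06 and 14.23, below every 2D array (14.53 to 14.90), and both perfused arrays (14.32 and 14.59) lay above every static array. Static 3D against 2D gave a log2 fold change of -0.86 (SE 0.24, 95% interval -1.41 to -0.30). By limma the unadjusted p was 0.00700, rank 63 of 11031, and the adjusted p 0.940. A lower level with no overlap was seen for 5.18% of all genes in this comparison. The value was -0.62 within chip 2, which leaves out static 3D replicate 1, and -0.55 without the pair of arrays that stood apart.

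Perfused against static 3D gave 0.56 for TXN (SE 0.27, limma adjusted p 1.00), and 0.31 without static 3D replicate 1, the lowest array. Perfused 3D against 2D gave -0.30 (SE 0.27), and 0.43 with chip as a block. A further TXN probe (ILMN_1680314) had the same order of groups, with -1.0 (SE 0.30) for static 3D against 2D, 0.55 (SE 0.34) for perfused against static 3D and -0.45 (SE 0.34) for perfused 3D against 2D. Both probes measure TXN, so they are no independent observations.

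TXNRD1, the selenoprotein that reduces thioredoxin with NADPH, did not separate the formats. Its intensity (probe ILMN_1717056) was 3479 and 7580 units on the perfused arrays, 4503, 2670 and 3403 units on the static arrays and 7742, 2900 and 6141 units in 2D. High and low arrays occurred in both perfused 3D and 2D, while the static arrays were closer together (11.43 to 11.98 on the log2 scale). The log2 fold change was 0.63 (SE 0.41) for perfused against static 3D, 0.08 (SE 0.41) for perfused 3D against 2D and -0.55 (SE 0.36) for static 3D against 2D. The limma adjusted p was 0.940 or more in all 3. Perfused against static 3D was at 0.23 without perfused replicate 2, and static 3D against 2D was at -0.92 without 2D replicate 2 and -0.33 without 2D replicate 1. Perfused 3D against 2D was at 0.30 without the pair of arrays that stood apart and -0.38 with chip as a block. A probe of another TXNRD1 transcript record (ILMN_2324421) gave values of the same sign, at 1.14 (SE 0.62), 0.19 (SE 0.62) and -0.95 (SE 0.55).

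SRXN1, sulfiredoxin, repairs peroxiredoxins that peroxide has over-oxidised. Its intensity (probe ILMN_1804822) was 1798 and 4965 units on the perfused arrays, 3877, 1315 and 2415 units on the static arrays and 5711, 1605 and 3092 units in 2D. The highest array was 2D replicate 1 and the lowest static 3D replicate 2, 3.90-fold apart after normalisation. The differences between groups, 0.46 (SE 0.60) for perfused against static 3D, 0.08 (SE 0.60) for perfused 3D against 2D and -0.38 (SE 0.54) for static 3D against 2D, were smaller than their errors. Once chip was fitted as a block they were -0.29, -1.04 and -0.75, and without the pair of arrays that stood apart 0.83, 0.49 and -0.34. Without static 3D replicate 2 the first and the last were 0.074 and 0.0059.

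SLC7A11 encodes the antiporter that brings in cystine, the source of cysteine for glutathione, in exchange for glutamate, and ATF4 acts on it as well as NRF2. It was above background on 2 arrays only. The intensity (probe ILMN_1655229) was 216 and 375 units on the perfused arrays, 319.8, 202 and 292 units on the static arrays and 538, 189 and 266 units in 2D. It was detected on perfused replicate 2 (detection p 0.0169) and 2D replicate 1 (detection p 0.0013) and on no static array. Neither comparison with static 3D gives a fold, since no static array detected it and the lower bound on the fold is under 1. In perfused 3D and in 2D the mean rests on 1 detected array each, and the fitted difference of -0.13 (SE 0.75) was 0.69 without 2D replicate 1.

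GCLC and GCLM are the catalytic and the modifier subunit of glutamate-cysteine ligase, the enzyme that sets the rate of glutathione synthesis. GCLC varied least of the 9 genes. Its intensity (probe ILMN_1730575) was 652 and 744 units on the perfused arrays, 764, 887 and 1146 units on the static arrays and 819, 814 and 730.0 units in 2D. The log2 fold change was -0.43 (SE 0.30) for perfused against static 3D, -0.12 (SE 0.30) for perfused 3D against 2D and 0.31 (SE 0.27) for static 3D against 2D, with overlap in each. With chip as a block these were 0.053, 0.61 and 0.55, and without the pair of arrays that stood apart -0.67, -0.12 and 0.55. A further GCLC probe (ILMN_2215194) was not detected on any array.

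GCLM differed more between arrays than between formats. Its intensity (probe ILMN_1788547) was 2344 and 8590.0 units on the perfused arrays, 3022, 2238 and 4391 units on the static arrays and 7448, 2297 and 5528 units in 2D. The perfused arrays alone spanned 11.31 to 12.91 on the log2 scale, nearly the whole range of 1.83. The log2 fold change was 0.62 (SE 0.57) for perfused against static 3D, 0.10 (SE 0.57) for perfused 3D against 2D and -0.52 (SE 0.51) for static 3D against 2D. The first was -0.18 without perfused replicate 2, the second -0.69 without it and -0.36 without 2D replicate 2. Without the pair of arrays that stood apart the second was 0.40 and the last -0.14. The further probe (ILMN_2225974) disagreed in size, with 0.24 (SE 0.38), 0.23 (SE 0.38) and -0.0097 (SE 0.34), and its level on static 3D replicate 1 (9.74) was the highest of all arrays.

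**Figure D3:**
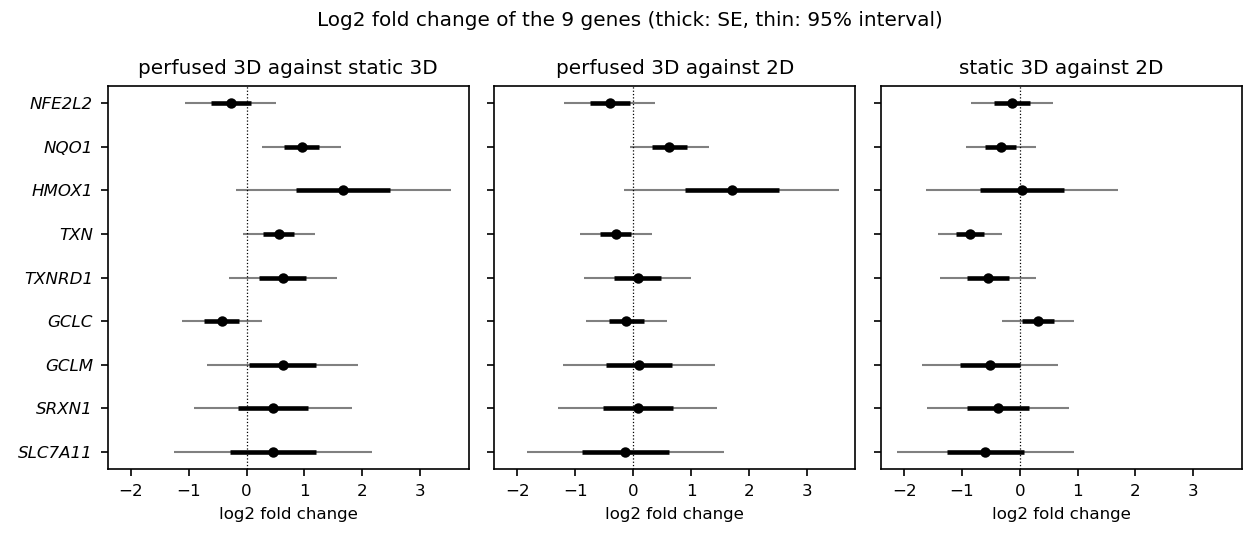
Log2 fold change (horizontal axis) of the 9 genes in perfused against static 3D, perfused 3D against 2D and static 3D against 2D, with the SE as a thick and the 95% interval as a thin line. The interval leaves out 0 for NQO1 in the first comparison (0.27 to 1.63) and for TXN in the last (-1.41 to -0.30), before adjustment over all genes.

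SLC7A11 is left out of the counts of direction that follow, as its level was mostly not measured. Of the other 8 genes, 6 were higher in perfused than in static 3D and 2 lower, with a median log2 fold change of 0.59, against 0.0016 over all genes, of which 50.2% were higher. The normalised levels did not overlap for 3 (NQO1, HMOX1 and TXN), all higher in perfused 3D, although the intensities of HMOX1 and TXN did. A higher level with no overlap was seen for 8.95% of all genes. Without perfused replicate 2 the count was 4 of 8 higher and the median 0.051. Without perfused replicate 1 the median was 1.03.

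In perfused 3D against 2D, 5 of the 8 were higher with a median of 0.080, against 0.0078 over all genes, of which 50.8% were higher. Groups did not overlap for 0 of the 8, beside 10.8% higher and 10.1% lower of all genes. There 2 of 8 were higher without perfused replicate 2 (median -0.38) or without 2D replicate 2 (median -0.33), and 5 of 8 without the pair of arrays that stood apart (median 0.35). In static 3D against 2D, 6 of the 8 were lower and 2 higher, with a median of -0.35, against 0.0015 over all genes, of which 49.9% were lower. Without 2D replicate 2 that median was -0.60, without 2D replicate 3 -0.22, and without the pair 6 of 8 were still lower. The comparisons share arrays, so these counts are not independent of each other.

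Perfused replicate 2 had the highest level of 4 of the 9 genes, 2D replicate 1 of 3 and static 3D replicate 3 of 2. Static 3D replicate 2 had the lowest level of 4 genes and static 3D replicate 1 of 2. The mean of the 9 levels, each taken relative to its own average, was -0.13 and 0.66 on the perfused arrays, -0.39, -0.38 and 0.0099 on the static arrays and 0.30, -0.36 and 0.30 in 2D. These counts and means include SLC7A11, although its level was mostly not measured. Its relative level was 1.89 on 2D replicate 1 and 0.76 on perfused replicate 2, which raises the means of both arrays. Of the 8 genes other than SLC7A11, 7 were higher on perfused replicate 2 than on perfused replicate 1, with a median difference of 0.70, while 49.3% of all genes were, with a median of -0.0085. The excess was 1.60 for GCLM, 1.16 for SRXN1, 1.15 for HMOX1 and 0.80 for TXNRD1, and GCLC was the exception at -0.085. This is a difference between 2 arrays of the same format and chip and has no replicate check. The spread within groups was above the median of all genes (SD 0.36) for 6 of the 9, up to 1.12 for HMOX1.

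**Figure D4:**
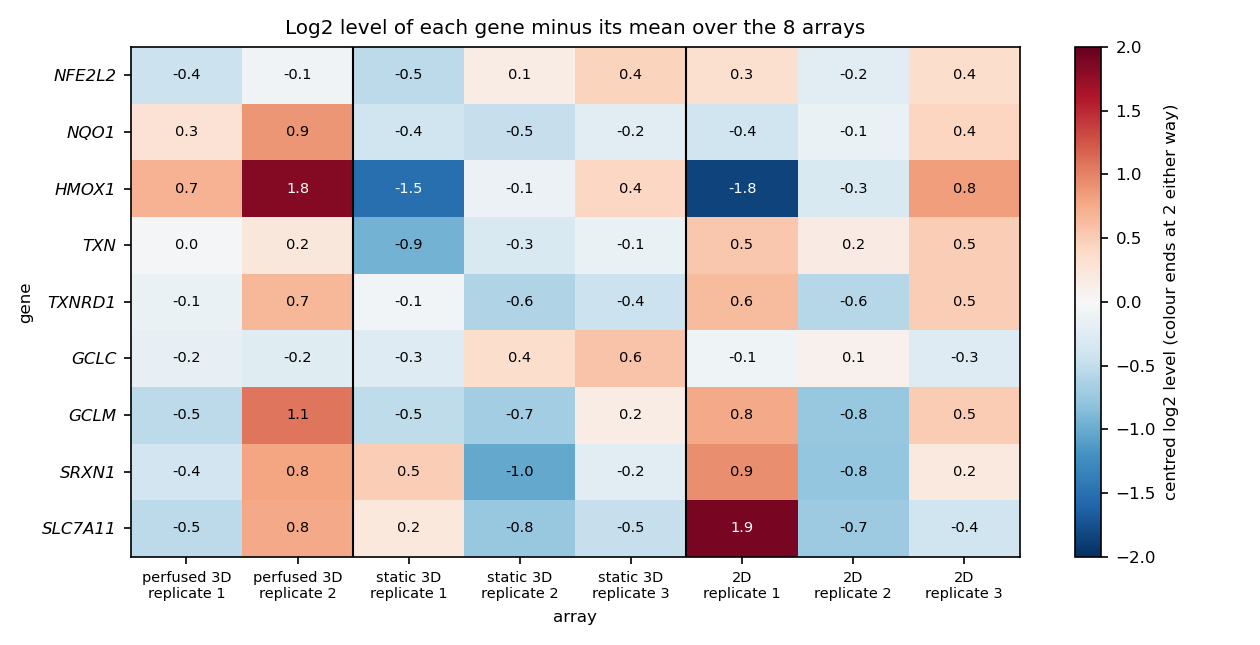
Log2 level of each of the 9 genes (rows) relative to its own average over the 8 arrays (columns, grouped as perfused 3D, static 3D and 2D), written in each cell and coloured from blue (lower) to red (higher). Perfused replicate 2 is above average for 7 of the 9 genes and perfused replicate 1 for 2.

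TXNRD1, GCLM and SRXN1 lay near each other over the arrays, as did other pairs of the 9 genes. The root mean square difference of their centred log2 levels over 8 arrays was 0.32 for TXNRD1 and SRXN1, the smallest of all pairs of the 9 genes, 0.34 for TXNRD1 and GCLM and 0.43 for GCLM and SRXN1. Among the 9 genes NFE2L2 was nearest to GCLC (0.33) and TXN (0.38), both below the value of GCLM and SRXN1. The median of this measure over all genes was 0.59 for TXNRD1, 0.75 for GCLM and 0.73 for SRXN1. It was 0.50 for NFE2L2, 0.47 for GCLC and 0.57 for TXN. The measure tends to be smaller for genes that vary less, so values of different pairs are not on a common scale. As the 8 arrays share labels, chips and the pair that stood apart, this is a description and no test.

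Promoters of the 9 genes are shown where they hold the core of the antioxidant response element. That core, TGACNNNGC on either strand, was searched in the 250 bases before each RefSeq start (GRCh38.p14). Of the 9 genes 7 matched an entry by symbol (NFE2L2, NQO1, TXN, TXNRD1, SRXN1, GCLC and GCLM), with 9 entries in all. The core was found in 3 entries of 2 genes, GCLM and TXNRD1, and not in the entry of SRXN1. It is present in 10.9% of all 35116 entries, so such a match is not rare. The windows are given 5′ to 3′ on the strand of the gene and end at the base before the start, with the core in capitals.
GCLM, chr1:93909431-93909550, minus strand: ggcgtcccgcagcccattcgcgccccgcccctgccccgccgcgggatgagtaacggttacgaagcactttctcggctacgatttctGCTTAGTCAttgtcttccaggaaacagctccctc
TXNRD1, upstream start, chr12:104215659-104215778, plus strand: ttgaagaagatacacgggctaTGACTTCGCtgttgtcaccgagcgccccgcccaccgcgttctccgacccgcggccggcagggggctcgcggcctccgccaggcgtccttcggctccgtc
TXNRD1, downstream start, chr12:104286912-104287031, plus strand: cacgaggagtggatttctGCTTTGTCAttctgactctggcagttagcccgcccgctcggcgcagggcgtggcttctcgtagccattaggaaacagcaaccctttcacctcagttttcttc
The core begins 34 bases before the start in GCLM, on the reverse strand, and 99 and 102 bases before the starts in TXNRD1, on the forward strand and the reverse strand. The related AP-1 motif TGANTCA, present in 6.57% of all entries, was in none of the 9 entries and overlaps none of these cores. These arrays measure transcripts, so the matches are letters in a window and no measured sites.

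Among all tested genes, those nearest to each of the 9 were found by the same measure. AKR1C4 (0.11) and PSPH (0.13) were nearest to GCLM, and AKR1C2 (0.12) and TIMM29 (0.15) to SRXN1. AKR1C2 and AKR1C4 have close paralogues, whose transcripts 1 probe may not separate. SZRD1 (0.14) and MSI2 (0.15) were nearest to TXNRD1, CSNK1A1 (0.091) and REXO2 (0.13) to TXN, and VSIG10L (0.14) and RRAGC (0.15) to NQO1. KLHL9 (0.12) and TFPI2 (0.14) were nearest to NFE2L2, and RAP2C (0.082) and SOX9 (0.10) to GCLC. HMOX1 had no gene that near, with SEZ6L2 at 0.37 and GATM at 0.42, and for SLC7A11 PTPN2 lay at 0.30 and SGK2 at 0.30. The medians over all genes were also largest for HMOX1 (1.20) and SLC7A11 (0.91), so their values are not on the scale of the others.

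The wider pathway was followed through 92 further genes in 8 lists, of which 76 were tested. None passed limma's test in any comparison (smallest adjusted p 0.940). At an unadjusted p under 0.05 there were 3 of 76 in perfused against static 3D, 4 in perfused 3D against 2D and 5 in static 3D against 2D, shares of 3.95%, 5.26% and 6.58% beside the 1.88%, 4.22% and 4.7% of all genes. Higher in perfused than in static 3D were 51 of 76, higher in perfused 3D than in 2D 49 and higher in static 3D than in 2D 35. Without the pair of arrays that stood apart these counts were 53, 43 and 27, and with chip as a block 42, 36 and 32. They were not taken without perfused replicate 2. Of all genes 50.2% were higher in perfused than in static 3D and 50.8% higher in perfused 3D than in 2D. In static 3D against 2D 49.9% of all genes were lower. Groups did not overlap for 12 higher and 5 lower genes in perfused against static 3D, 15.8% and 6.58%, beside 8.95% and 8.31% of all genes. The 12 include HMOX2, not detected in either group, and FTL, at the highest level these arrays give after normalisation, which leaves 10. The counts were 12 higher and 3 lower in perfused 3D against 2D, 15.8% and 3.95%, beside 10.8% and 10.1% of all genes. They were 4 and 4 in static 3D against 2D, where 4.96% and 5.18% of all genes did so.

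**Figure D5:**
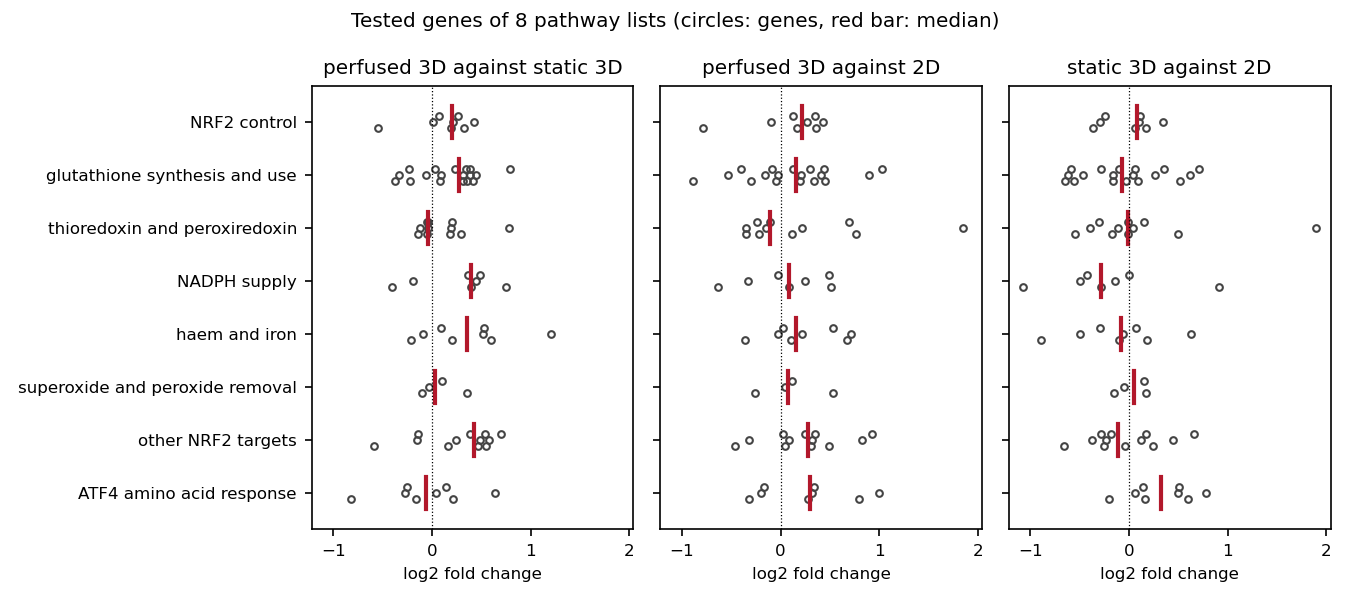
Log2 fold change (horizontal axis) of the 76 tested genes of 8 pathway lists (rows) in perfused against static 3D, perfused 3D against 2D and static 3D against 2D, with a circle per gene and the median as a red bar. Medians lie between -0.06 and 0.42, between -0.10 and 0.30 and between -0.28 and 0.33 in these comparisons.

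Of 13 genes in the list of NRF2 control 8 were tested. In perfused against static 3D, perfused 3D against 2D and static 3D against 2D, 7, 6 and 5 of these were higher. Under the chip block 2, 3 and 2 of 8 were higher, and without the pair of arrays that stood apart 7, 6 and 1. The list mixes partners of NRF2, such as MAFG, with genes that act against it, such as KEAP1. Its counts therefore give no direction for NRF2. KEAP1 had log2 fold changes of 0.20 (SE 0.45), 0.36 (SE 0.45) and 0.17 (SE 0.40), and MAFG, a partner of NRF2, of 0.21, 0.27 and 0.060. In the fit with chip as a block all of these turned, to -0.41, -0.55 and -0.14 for KEAP1 and -0.058, -0.13 and -0.074 for MAFG, and without the pair MAFG was at -0.26 in static 3D against 2D. SQSTM1, the autophagy receptor p62 that binds KEAP1 and is itself a target of NRF2, was at 15.29 and 15.64 on the perfused arrays, 14.98, 15.09 and 15.05 on the static arrays and 15.43, 15.16 and 15.42 in 2D. All static arrays lay below all others. The fold changes were 0.43 (SE 0.19) for perfused against static 3D, 0.13 (SE 0.19) for perfused 3D against 2D and -0.30 (SE 0.17) for static 3D against 2D. RBX1, a subunit of the ligase that marks NRF2 for destruction, gave -0.54 (SE 0.28) and -0.79 (SE 0.28) in the perfused comparisons, and -0.29 and -0.40 with chip as a block. GSK3B gave -0.36 (SE 0.31) in static 3D against 2D and NFE2L1, a relative of NRF2, 0.35 (SE 0.35) in perfused 3D against 2D. Once chip was fitted as a block these were -0.57 and 0.016, and without the pair NFE2L1 was at 0.094. BACH1 had no probe past the filter.

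Of 18 tested genes of glutathione synthesis and use, 13, 10 and 8 were higher in perfused against static 3D, perfused 3D against 2D and static 3D against 2D, and 8, 8 and 6 with chip as a block. The glutathione peroxidase gene GPX2 gave 0.90 (SE 0.39) and the exporter ABCC4 -0.89 (SE 0.50) in perfused 3D against 2D, and with chip as a block GPX2 was at -0.016 and ABCC4 at -1.64, while without the pair ABCC4 was at -0.41. The exporter ABCC3 gave 0.71 (SE 0.28) and GSTO1 -0.28 (SE 0.15) in static 3D against 2D, and ABCC3 0.26 without the pair. MGST1 gave 0.31 (SE 0.20) and GLRX2 0.79 (SE 0.50) in perfused against static 3D. Of the 11 further thioredoxin and peroxiredoxin genes 5, 5 and 4 were higher.

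TXNIP encodes a protein that binds reduced thioredoxin and inhibits it, and its transcript is known to respond to glucose. It was at 11.87 and 10.91 on the perfused arrays, 10.94, 11.40 and 11.96 on the static arrays and 8.15, 10.20 and 10.27 in 2D. All 5 scaffold arrays lay above all 3 of 2D. The log2 fold change was 1.89 (SE 0.58) for static 3D against 2D and 1.85 (SE 0.65) for perfused 3D against 2D, with limma adjusted p of 0.940 and 0.964. Without the pair of arrays that stood apart these were 1.45 and 1.15. NXN, another thioredoxin relative, was not detected on any static array and was at least 1.33-fold higher in perfused 3D, while its value over 2D, where 1 of 3 arrays detected it, was 0.76 (SE 0.40), and 0.48 without the pair and 1.23 with chip as a block. PRDX1 gave 0.29 (SE 0.27) in perfused against static 3D and -0.40 (SE 0.24) in static 3D against 2D, the first being 0.12 with chip as a block.

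Of 7 tested genes of NADPH supply 5, 4 and 1 were higher in perfused against static 3D, perfused 3D against 2D and static 3D against 2D. ME1, malic enzyme, gave -1.07 (SE 0.34) in static 3D against 2D, with all 3 static arrays below all 3 of 2D, and -0.63 (SE 0.39) in perfused 3D against 2D. IDH2 gave 0.91 (SE 0.43) in static 3D against 2D and 0.28 without the pair. IDH1 gave 0.49 (SE 0.26) in each perfused comparison, and PGD 0.75 (SE 0.37) in perfused against static 3D. With chip as a block 3, 2 and 1 of 7 were higher, and PGD was at 0.49. Without the pair IDH1 was at 0.62 over static 3D and 0.38 over 2D, and with chip as a block at 0.24 and 0.11.

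Of 8 tested genes of haem and iron 6, 6 and 3 were higher in the same comparisons. SLC48A1, a haem transporter, had the smallest unadjusted p of all 76 genes (0.00249, limma adjusted p 1.00). It was at 8.03 on both perfused arrays, 7.30, 6.62 and 6.56 on the static arrays and 7.40, 7.33 and 7.24 in 2D, with both perfused arrays above all others. The log2 fold change was 1.21 (SE 0.28) over static 3D, on 2 of whose arrays it was not detected, and 0.71 (SE 0.28) over 2D. Under the chip block they were 0.73 and -0.0041. HMOX2, the constitutive heme oxygenase, was not detected on any perfused or static array. In 2D 2 of 3 arrays detected it. With scaffold arrays set to their lowest detected level it was 1.20-fold lower in perfused 3D and 1.12-fold lower in static 3D than in 2D. As 2D replicate 3 did not detect it either, these are no firm bounds and do not rank the scaffold formats. The fitted differences from 2D were -0.36 (SE 0.28) for perfused 3D, with overlap, and -0.90 (SE 0.25) for static 3D (limma adjusted p 0.964 and 0.940). ABCB6 gave 0.54 (SE 0.24) in perfused 3D against 2D and 0.63 (SE 0.22) in static 3D against 2D, the first being 0.090 with chip as a block.

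Catalase, CAT, was the gene with the smallest p among 4 tested genes of superoxide and peroxide removal, at 0.36 (SE 0.33), 0.53 (SE 0.33) and 0.17 (SE 0.30) in perfused against static 3D, perfused 3D against 2D and static 3D against 2D. SOD1 gave 0.10, PON2 -0.25 and SOD2 0.15 in these. Without the pair CAT was at 0.36, 0.19 and -0.18, SOD1 at 0.045, PON2 at -0.50 and SOD2 at 0.072. In the fit with chip as a block SOD1 was at 0.20, PON2 at 0.57 and SOD2 at 0.23. Of 12 other NRF2 targets 9, 10 and 5 were higher, and 7, 4 and 5 with chip as a block. EPHX1, an epoxide hydrolase, gave 0.93 (SE 0.43) in perfused 3D against 2D and -0.091 with chip as a block. GDF15, a stress hormone, gave 0.82 (SE 0.40) in perfused 3D against 2D and 0.66 (SE 0.36) in static 3D against 2D, against 0.37 and 0.31 without the pair. CBR1 and AKR1B10 gave 0.54 (SE 0.31) and 0.46 (SE 0.29) in perfused against static 3D, and AKR1B10 -0.37 (SE 0.26) in static 3D against 2D. Once chip was fitted as a block these were 0.24, 0.064 and -0.57, and the last was -0.61 without the pair.

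Of 8 genes of the ATF4 response, which also reaches SLC7A11, 4, 5 and 7 were higher in these comparisons. ATF4 itself was at 11.56 and 11.75 on the perfused arrays, 12.73, 12.17 and 12.52 on the static arrays and 12.51, 11.90 and 11.52 in 2D. Both perfused arrays lay below all static arrays, with a log2 fold change of -0.82 (SE 0.32), and static 3D against 2D gave 0.50 (SE 0.28) with overlap. CEBPB gave 0.63 (SE 0.50) over static 3D and 0.79 (SE 0.50) over 2D in perfused 3D, DDIT4 0.99 (SE 0.66) over 2D, and PHGDH 0.59 (SE 0.42) in static 3D against 2D. Without the pair these were 0.097, 0.53, 0.48 and 0.14, and with chip as a block 1.71, 2.40, 2.47 and 0.24.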

How the data were processed

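Amplification used a TotalPrep kit with biotin labels and Cy3-streptavidin staining, per the labels' protocols. Per the file headers, the authors deposited a mean bead intensity and a detection p-value for each of 47323 probes on 8 arrays. The sources used here do not give scanner software or settings. A table of processed log2 values, also deposited by the authors, served as an alternative. It ranks probes as the intensities do (Spearman 1, array medians 7.46 to 7.64), and its slope against log2 intensity was 1.03 to 1.05 for bright probes. Its background step, scaling and centring stay unknown.

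Intensities were background-corrected with limma 3.58.1 (R 4.3.3; normexp inferred from detection p, offset 16), quantile-normalised and log2-transformed. Probes with 1 symbol (30113; 8 had several, 17202 none) and detection p under 0.05 on at least 2 arrays were kept (14115). The kept probe with the highest mean stood for each of 11031 genes. Symbols were updated through gene identifiers in RefSeq. A mean per group was fitted to all 8 arrays (lmFit, eBayes with trend, 8.45 total degrees of freedom), two-sided, with Benjamini-Hochberg adjustment at 0.05. The fit was also run on simulated data with planted differences and independent noise. Those data had no chip effect and no outlying arrays, so that run does not bear on the calls made here. The number of arrays limits precision: the median SE was 0.33 for perfused comparisons and 0.29 for static 3D against 2D. A gene undetected throughout a group gets "at least" folds. Each of that group's arrays is set to its lowest detected level where its own value was below that. Such a fold is no firm bound where an array of the other group did not detect the gene either.

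Chip 1 holds both perfused arrays and static 3D replicate 1, and chip 2 the rest. The chip fit compares static 3D with 2D within chip 2 and perfused with static 3D within chip 1. For perfused 3D against 2D it sums the 2. All chip values of perfused comparisons therefore depend on static 3D replicate 1, which belongs to the pair that stood apart. The 9 genes, the lists and the tests were chosen with earlier results of these data known. Named were all 9 genes, KEAP1, MAFG, BACH1 and SQSTM1, the 2 genes per list and comparison with the smallest p, the 2 nearest genes of each of the 9, and the markers CD163, C1QB, COL1A1, TOP2A and AFP. GPC3, DLK1, LIN28B, PEG10, FTL, CD68, CD14 and LYZ were named after their values were seen. Alternatives were the background, offset, scaling, authors' values, filters, probe averaging, chip, array weights, the 2 groups alone and arrays left out.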

Additional observations from a re-analysis of the deposited data

How the results depend on the processing

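Of 510 values of the 9 genes under alternatives, 471 kept their sign, 39 had the opposite sign and 0 crossed the threshold. Leaving out an array of the group not compared, or fitting the 2 groups alone, cannot change a fold change. The other filters left the median of the 8 genes other than SLC7A11 unchanged. The number of kept signs therefore overstates stability. SLC7A11 gave no value when probes had to be detected on all 8 arrays. Its values below are fitted differences of a probe detected on 2 of 8 arrays and are no measured folds. No paired analysis was possible because the labels give no replicate numbers or donors. The count of all genes called, 1 in each perfused comparison, was 2 without a filter and 0 on probes detected on all 8 arrays (the called gene, CYP3A4, drops out there), with chip as a block and on the 2 groups alone. With the pair of arrays that stood apart left out it was 2 in perfused 3D against 2D, and 1 in place of 0 in static 3D against 2D, where the median of the 9 genes was then -0.14. Median scaling shifted the median of all genes by 0.12, -0.02 and -0.13 in perfused against static 3D, perfused 3D against 2D and static 3D against 2D.

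With chip as a block the sign turned in perfused against static 3D for GCLC (0.053), NFE2L2 (0.28), SLC7A11 (-0.082) and SRXN1 (-0.29), in perfused 3D against 2D for GCLC (0.61), NFE2L2 (0.42), TXN (0.43), TXNRD1 (-0.38) and SRXN1 (-1.04), and in static 3D against 2D for NFE2L2 (0.14). In static 3D against 2D HMOX1 turned to -0.0039 without background correction, -0.16 with median scaling, -0.10 with the authors' values, -0.27 with array weights and -0.12 without that pair, and NFE2L2 to 0.00095 with array weights and 0.23 without the pair. In perfused 3D against 2D SLC7A11 turned to 0.0030 without background correction, 0.090 with the authors' values, 0.35 with array weights and 0.69 without the pair. In the chip fit, perfused 3D was compared with static 3D replicate 1 alone, an array of the pair that stood apart. Perfused 3D against 2D contains this difference, and static 3D against 2D leaves that array out. Sign changes in the chip fit therefore cannot be told from the effect of that array. The cause of the other sign changes was not tested.

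With each array left out in turn, perfused against static 3D ran from -0.18 to 1.42 for GCLM, -0.18 to 1.10 for SLC7A11, -0.12 to 1.04 for SRXN1 and -0.12 to 1.04 for the median of the 9 genes. Perfused 3D against 2D ran from -0.69 to 0.90 for GCLM, -0.77 to 0.69 for SLC7A11, -0.50 to 0.66 for SRXN1, -0.32 to 0.48 for TXNRD1 and -0.44 to 0.51 for the median. Static 3D against 2D ran from -0.67 to 0.67 for HMOX1, -0.34 to 0.14 for NFE2L2, -1.09 to 0.23 for SLC7A11, -0.82 to 0.029 for SRXN1 and -0.82 to -0.22 for the median. The smallest adjusted p of any of the 9 genes under an alternative was 0.445, for TXN in static 3D against 2D.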
